A study of Mus musculus with 4 samples.

Results

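The genes studied here were 32 genes of glycolysis and of the response to low oxygen, out of 27998 mouse genes in the count tables. They were chosen by symbol and not by their values, and all 32 were found. By role they were 3 glucose and lactate transporters, 9 enzymes of upper glycolysis, 2 enzymes that set fructose 2,6-bisphosphate, 5 enzymes of lower glycolysis, 2 enzymes that decide the fate of pyruvate, 3 genes of mitophagy and lipid droplets, 2 oxygen sensors and 6 other hypoxia response genes. Their transcripts were counted in single tdTomato+ cells sorted from mouse femurs. The mice carried *Cxcl12*-iCreER, a tamoxifen-dependent Cre recombinase driven by *Cxcl12* regulatory sequence on a bacterial artificial chromosome, and R26R(tdTomato/+), a reporter that Cre switches on for good. All mice received tamoxifen 7 days before surgery. The marrow of the right femur was then removed mechanically. Cells were collected 7 days after that from the ablated femur (ABL) and from the unoperated left femur (CONT). By the study's design both femurs come from the same mice, which *Xist* levels given below put in doubt for replicate 2. There were 2 biological replicates of each condition and 4 libraries, called CONT1, ABL1, CONT2 and ABL2 below. Replicate 1 was made with Chromium chemistry version 2 from cells pooled over mice, and replicate 2 with version 3. The ages of the mice are not given in the sources used here.

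Glycolysis splits glucose into pyruvate in the cytosol and yields ATP without oxygen. When oxygen is scarce, prolyl hydroxylases of the Egln family no longer mark the hypoxia-inducible factors for destruction, and these factors raise transcription of glucose transporters, glycolytic enzymes, lactate dehydrogenase and genes that lower mitochondrial respiration. Bone marrow is known as a tissue of low oxygen tension, and *Cxcl12*-expressing reticular cells are its main perivascular stromal cells.

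Hypoxia-inducible factors bind DNA at a short core, ACGTG or GCGTG. Windows of 300 bases (250 before and 50 after) were read at every start in the RefSeq promoter table for GRCm38.p6. At least 1 of these cores on either strand was found at any start for 27 of the 29 members with an entry. That is 93.1%, against 46.7% of 27025 genes. Members had 45 windows and all genes 32851, and by window the shares were 82.2% and 43.8%. The median GC content of these windows was 62.3% for the members and 52.7% for all genes. *Gpi1* and *Tpi1* had none, and *Slc2a3*, *Ndrg1* and *Bnip3l* had no entry. A match is a string of letters and not evidence of binding. The windows below belong to the 2 members that were higher in hematopoietic cells after ablation (*Hilpda* and *Aldoc*) and to *Slc16a3* and *Pgk1*. In mesenchymal cells *Slc16a3* and *Pgk1* were higher in both ABL libraries than in both CONT libraries, but neither was called. Other members had that order too, among them *Pkm*, *Eno1* and *Gapdh*. Cores were also found for members that were lower there in ABL of each replicate, such as *Ddit4* and *Mxi1*. Each window below is 25 bases of the plus strand, with the core, or its reverse complement CACGT, in capitals. The first *Hilpda* window lies at chr6:29272573-29272597 and the second at chr6:29272608-29272632.
Hilpda: tggccagcggACGTGccccagggcg
Hilpda: ggttcggtacGCGTGcgcagtctcc
The *Aldoc* windows lie at chr11:78323013-78323037 and chr11:78323090-78323114.
Aldoc: acctctgaggGCGTGgccttaccct
Aldoc: cccagggagtCACGTagctctgcgg
The *Slc16a3* windows lie at chr11:120949030-120949054 and chr11:120949043-120949067, and the *Pgk1* windows at chrX:106186940-106186964 and chrX:106186959-106186983.
Slc16a3: ggcagcggtgACGTGcgcgggggac
Slc16a3: tgcgcgggggACGTGccgcgcgacg
Pgk1: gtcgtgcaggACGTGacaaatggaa
Pgk1: atggaagtagCACGTctcactagtc

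After filtering, 1459 to 3433 cells per library were kept, with medians of 5714 and 7338 UMIs in replicate 1 and of 12283 and 12895.5 in replicate 2. Cells were clustered in each library with the members left out, mesenchymal cells were clustered again over CONT and ABL of each replicate together after integration, and clusters were named from marker genes, so that each class name below stands for cells resembling that type. Mesenchymal cells (681 to 2052 per library) expressed *Cxcl12* and *Adipoq*, and 95.6 to 97.6% of them held a tdTomato UMI. Hematopoietic cells (327 to 1986) were also in the sort, with a tdTomato UMI in 30.5 to 61.3%, and no mesenchymal or hematopoietic marker was at 0 in its own class. RNA from outside the cell made up an estimated 0.882 to 19.4% of mesenchymal UMIs and 5.42 to 11.6% of hematopoietic UMIs. In the reticular class of mesenchymal cells this share was 9.08, 14.6, 0.892 and 23.8% in CONT1, ABL1, CONT2 and ABL2, higher in ABL of each replicate. This was read from the hemoglobin genes *Hbb-bt* and *Hba-a1* in mesenchymal cells and from *Cxcl12* and *Adipoq* in hematopoietic cells. Doublets, or cells that hold these transcripts themselves, would count as outside RNA. Called doublets, 2 to 78 per library, were kept. CONT1 and ABL1 shared 5 cell barcodes where 6.79 are expected by number, CONT2 and ABL2 shared 1, and the other pairs none. The *Xist* level of mesenchymal cells was 587, 777 and 807 CPM in CONT1, ABL1 and CONT2 and 0.0781 in ABL2. CPM stands for UMIs per 1000000 UMIs of the class in that library. In hematopoietic cells *Xist* was 432 CPM in CONT2 and 0.226 in ABL2. The libraries of replicate 2 thus differed in the sex of their cells and do not appear to hold femurs of the same set of mice. Sex and condition cannot be told apart there. Levels below are in CPM. They count tags of transcript 3′ ends, which do not scale with transcript length.

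Across 13 named classes with at least 10 cells in a library, the members differed in the class where they were highest, also within a role. The highest mean level over libraries was in chondrocytes for 9 members, in endothelial cells for 7, in granulocyte precursors for 6, in erythroid cells and in neutrophils for 3 each, in reticular cells for 2, and in monocytes/macrophages and periosteal-like cells for 1 each. Each mean covers only the libraries in which the class had at least 10 cells. These were ABL2 alone for chondrocytes and CONT1 and ABL1 alone for granulocyte precursors. Levels within a class also differed between replicates, as for *Pkm* in reticular cells, at 98.6 CPM in CONT1 and 43.0 in CONT2. For such classes rank cannot be told apart from chemistry, nor for chondrocytes from condition. The summed CPM of 15 glycolytic enzyme genes (upper and lower glycolysis with *Ldha*) gives the main order. For the glycolytic enzymes and Ldha it was 4972 and 5291 in granulocyte precursors of CONT1 and ABL1, 3989.9 to 4999.5 in neutrophils, 1456 to 2069 in reticular cells and 676 to 1582.5 in erythroid cells. Neutrophils and reticular cells did not overlap over the 4 libraries, while granulocyte precursors and neutrophils lay close together. In chondrocytes, which reached 10 cells in ABL2 alone (74 cells), the sum was 5456.5. These class levels are a description, since the classes come from the same cells. *Gapdh*, *Ldha*, *Pgk1*, *Tpi1*, *Pgam1*, *Eno1*, *Aldoa* and *Pkm* have processed pseudogenes or near copies in the mouse genome that can share their reads, so that their levels carry that uncertainty.

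**Figure D1:**
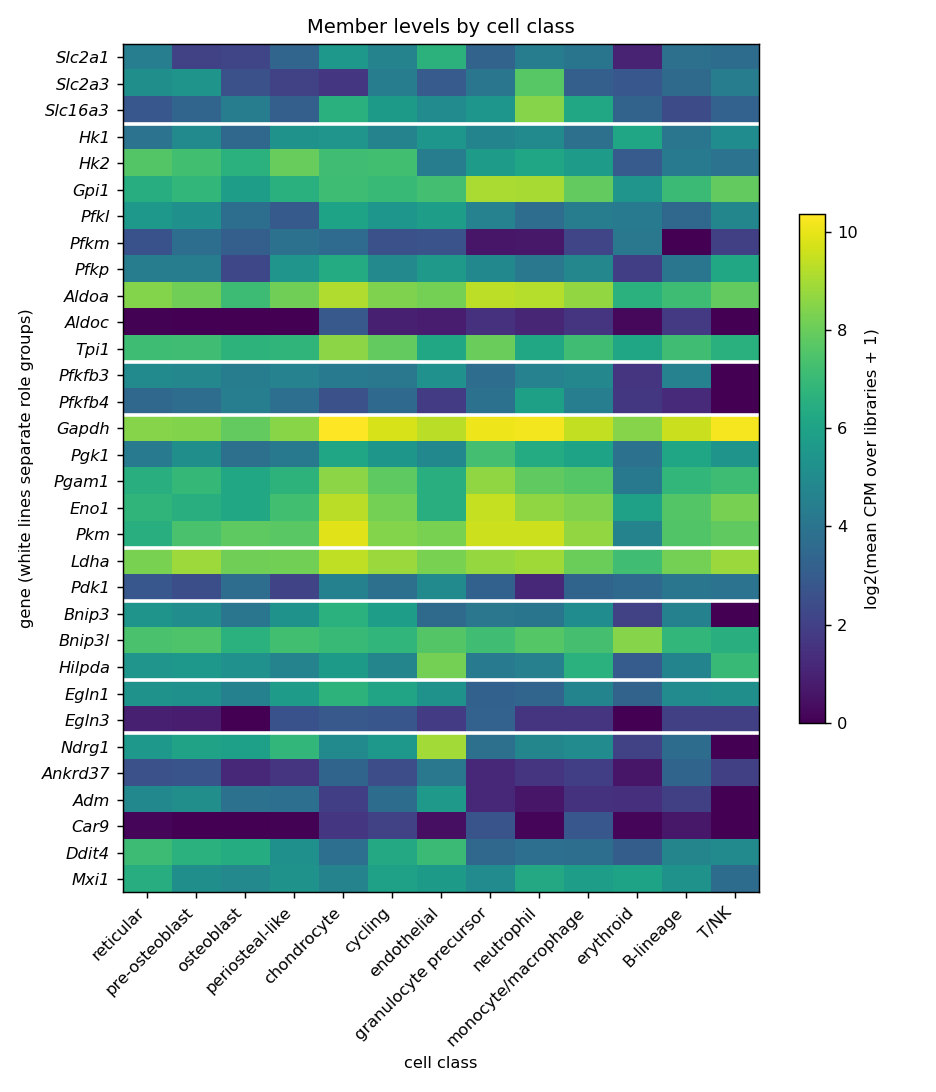
Level of the 32 members (rows, grouped by role) in the 13 named cell classes (columns), as log2 of the mean CPM over libraries plus 1. Brighter colours are higher levels. Most lower glycolysis genes are brightest in chondrocytes, granulocyte precursors and neutrophils, and *Hilpda* and *Ndrg1* in endothelial cells.

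ABL was compared with CONT on UMI counts summed per library, with the replicate as a block (edgeR quasi-likelihood test over all genes, Benjamini-Hochberg adjustment, threshold 0.05). In all mesenchymal cells 31 members were tested and 0 were called, where 0.512% of the 13662 genes tested were called higher and 0.0805% lower (0.593% in either direction). At an unadjusted p under 0.05 there were 7 (*Slc2a3*, *Slc16a3*, *Pgk1*, *Pkm*, *Adm*, *Ddit4* and *Mxi1*), against 2004 of all genes tested. DESeq2 called 1 member, *Pkm*, and 616 genes. The median log2 fold change of the members was 0.39 against −0.06 for all genes, and 19 members were above 0. In reticular cells 29 members were tested and 2, *Slc2a3* and *Ndrg1*, were lower in ABL, where 1.17% of 11464 genes were lower and 1.57% higher (2.74% in either direction). The members' median there was 0.02. DESeq2 called 0 members in reticular cells (*Slc2a3* adjusted p = 0.357, *Ndrg1* adjusted p = 0.269) and 162 genes. In hematopoietic cells all 32 were tested. *Hilpda* and *Aldoc* were higher, where 3.84% of 11990 genes were, and *Slc2a3* was lower, where 2.55% were (6.4% in either direction). The share of members called was 9.38%, near the share of all genes, and their median was −0.0029 against −0.05 for all genes. DESeq2 called *Hilpda* alone of the members there (adjusted p = 0.00142), and 268 genes. Without the replicate block 0 members were called by edgeR in each of these classes. An exact permutation test of a single value over 2 against 2 libraries, exchanged without regard to replicate, cannot go below p = 0.333. Exchange within replicates only, as the block implies, leaves fewer arrangements and a higher limit.

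**Figure D2:**
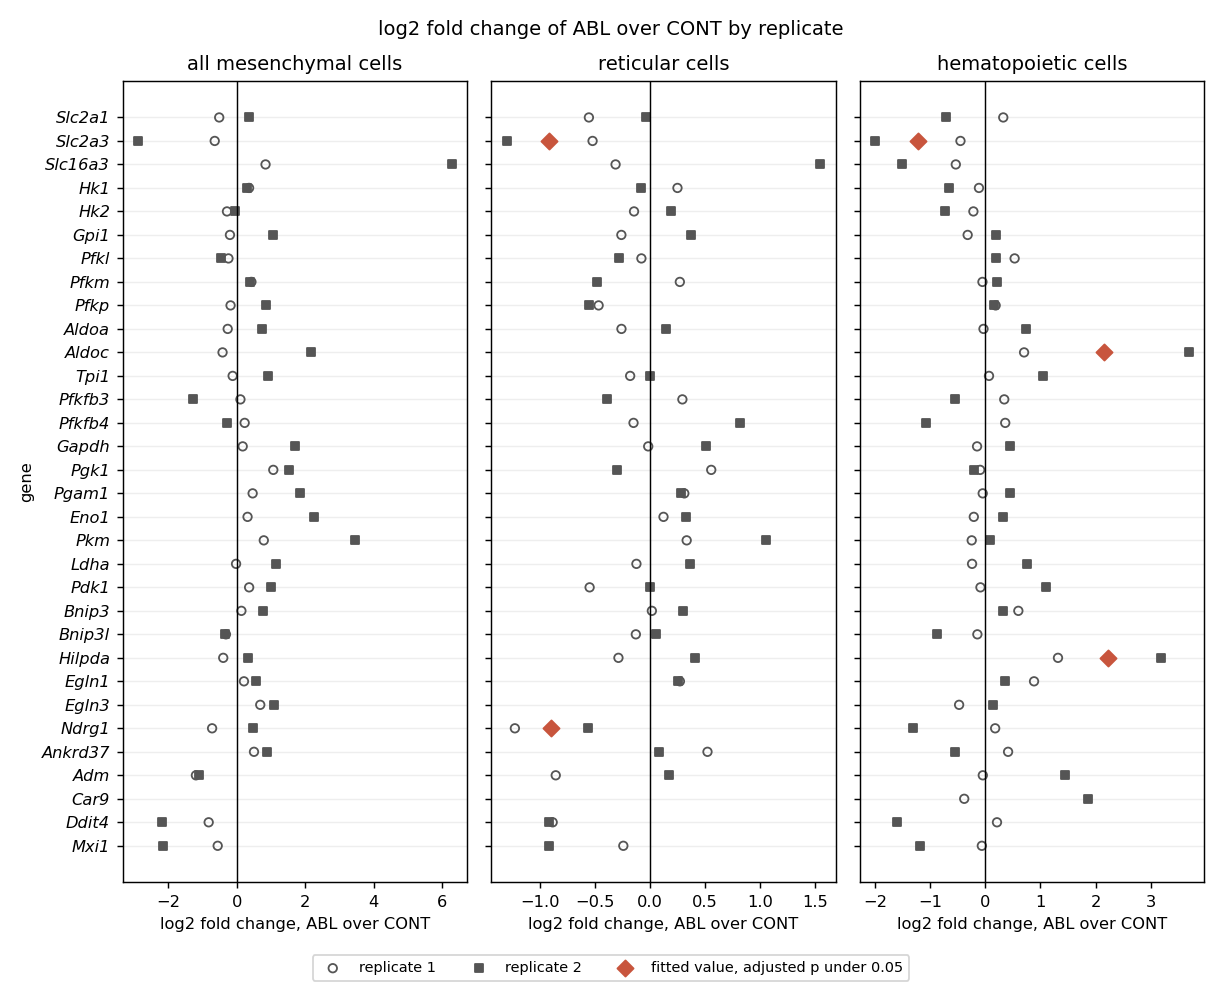
Log2 fold change of ABL over CONT for each member (rows) in mesenchymal, reticular and hematopoietic cells (panels), with 1 point for each replicate. A red diamond marks a fitted value with an adjusted p under 0.05, as for *Slc2a3* (−0.93) and *Ndrg1* (−0.90) in reticular cells. In mesenchymal cells replicate 2 lies far above replicate 1 for *Slc16a3*, *Pkm* and *Eno1*.

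The makeup of the classes moved with the condition. Reticular cells were 90.4% of mesenchymal cells in CONT1, 61.7% in ABL1, 96.0% in CONT2 and 18.7% in ABL2. Weighting the reticular and the other mesenchymal cells of each ABL library as in its CONT library took the members' median fold in replicate 2 from 1.68 to 1.12 and the members above CONT from 23 to 20 of 32. In replicate 1 the same weighting took the median fold from 1.00 to 0.973. In such sums, more cells that express a gene and more transcript per cell cannot be told apart.

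The transporters take up glucose (*Slc2a1* and *Slc2a3*, which encode GLUT1 and GLUT3) and export lactate (*Slc16a3*, which encodes MCT4). *Slc2a1* was highest in endothelial cells, at 91.9 CPM in CONT1, 145 in CONT2 and 69.8 in ABL2, and 15.7 to 26.9 in mesenchymal cells, where CONT and ABL overlapped. *Slc2a3* was highest in neutrophils, at 134, 140.1, 350.2 and 195 CPM in CONT1, ABL1, CONT2 and ABL2. The glucose transporter genes thus differed in the class with their highest level. *Slc16a3* was also highest in neutrophils, at 338, 315, 486 and 317 CPM in the same order.

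In reticular cells *Slc2a3* (chr6:122727809-122801640, minus strand, GRCm38) was 33.2 CPM in CONT1 and 25.0 in ABL1, and 56.4 in CONT2 and 23.6 in ABL2. Both CONT libraries lay above both ABL libraries, and the 2 ABL libraries were almost level. The log2 fold change was −0.93 (SE 0.24, edgeR adjusted p = 0.0395). In all mesenchymal cells *Slc2a3* was 31.6, 21.2, 54.3 and 7.30 CPM in CONT1, ABL1, CONT2 and ABL2, which was lower in ABL of both replicates but was not called (log2 −1.78, SE 0.56, adjusted p = 0.173). In hematopoietic cells it was 46.3, 38.2, 100.7 and 27.7 CPM, again with the CONT libraries above the ABL libraries (log2 −1.22, SE 0.40, adjusted p = 0.0366). Neutrophils held 69.8 to 81.7% of these *Slc2a3* UMIs. Their share of hematopoietic UMIs was 24.1 and 23.5% in CONT1 and CONT2 and 20.3 and 10.2% in ABL1 and ABL2, and the part of this in the result was not tested. Within neutrophils the value was −0.25 and was not called.

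*Slc16a3* (chr11:120948480-120960868, plus strand) was the member whose mesenchymal level spread most. It was 11.1 CPM in CONT1, 21.1 in ABL1, 0.689 in CONT2 (19 UMIs, 95% exact Poisson interval 0.415 to 1.08) and 62.5 in ABL2. The log2 fold change was 3.56 (SE 1.22), with the replicates far apart (0.84 and 6.28), and the edgeR adjusted p was 0.208. In reticular cells the same gene was 11.01, 9.56, 0.726 and 2.62 CPM (log2 0.35, adjusted p = 0.849), so the ABL and CONT libraries overlapped there. Weighted as in CONT2, the replicate 2 fold fell from 90.6 to 8.74. In mesenchymal cells other than reticular cells, *Slc16a3* was 11.9 CPM in CONT1, 34.7 in ABL1, 0 in CONT2 and 69.4 in ABL2. This comparison was added after the data were seen (log2 3.53, edgeR adjusted p = 2.7e-06). The group held 82 cells in CONT2 and 1470 in ABL2, and its makeup differed between them. Its clusters led by *Msmp* and *Fmod* and by *C1qtnf3* and *Scx* held cells of ABL2 alone. By hemoglobin transcripts, RNA from outside the cell was an estimated 0.691% of the UMIs of this non-reticular group in CONT2 and 18.9% in ABL2. This estimate differed widely between classes of ABL2, with 0.313% in osteoblasts and 34.2% in cycling cells. With the estimate for all mesenchymal cells subtracted, the log2 fold change of *Slc16a3* in them was 7.40 (edgeR adjusted p = 0.00941). In hematopoietic cells *Slc16a3* was 110.6, 86.0, 140.5 and 54.3 CPM (log2 −1.02, edgeR adjusted p = 0.133), the opposite order to the mesenchymal cells. Neutrophils held 59.4 to 81.3% of these *Slc16a3* UMIs. Their share of hematopoietic UMIs was lower in ABL than in CONT of each replicate, and the part of this in the order was not tested. Within neutrophils the log2 fold change was −0.22 and was not called.

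**Figure D3:**
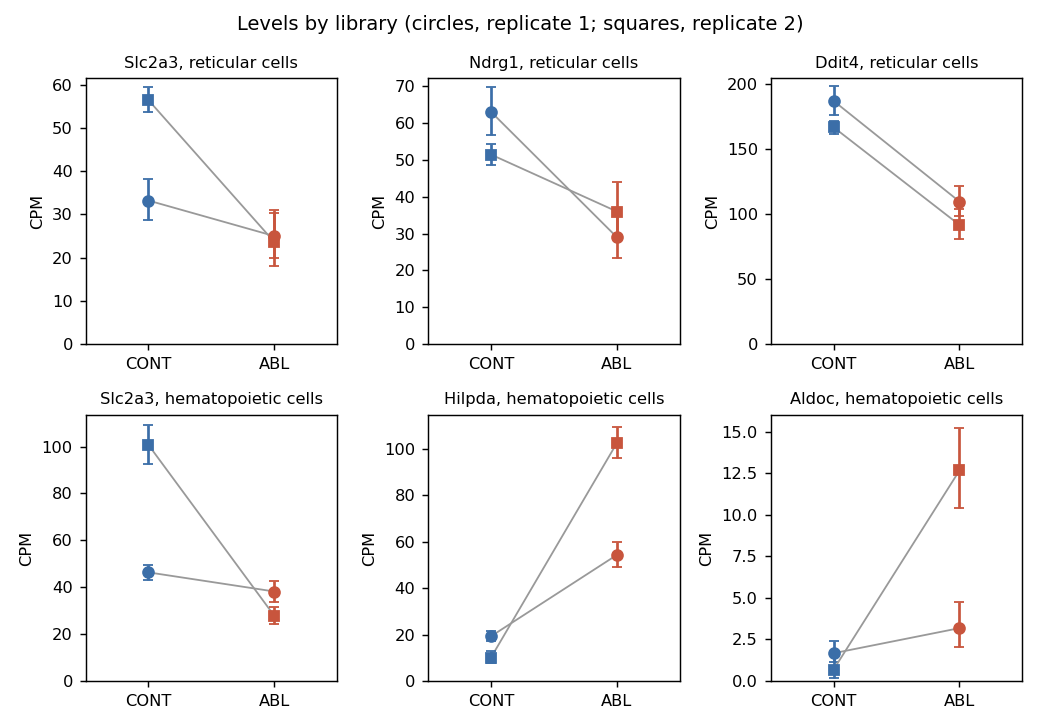
CPM in each library, with 95% exact Poisson intervals that cover counting error only, of *Slc2a3*, *Ndrg1* and *Ddit4* in reticular cells and of *Slc2a3*, *Hilpda* and *Aldoc* in hematopoietic cells. Both CONT libraries lie above both ABL libraries for *Slc2a3*, *Ndrg1* and *Ddit4*, and below them for *Hilpda* and *Aldoc*.

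The enzymes of upper glycolysis phosphorylate glucose (hexokinases *Hk1* and *Hk2*), turn it into fructose phosphates (*Gpi1* and the phosphofructokinases *Pfkl*, *Pfkm* and *Pfkp*), split it (aldolases *Aldoa* and *Aldoc*) and interconvert the products (*Tpi1*). The mean of *Hk2* was above that of *Hk1* in neutrophils (68.8 against 29.1 CPM) and in reticular cells (194.5 against 14.3), and below it in erythroid cells (6.90 against 66.8). *Hk2* was 145, 298 and 308 CPM in periosteal-like cells of ABL1, ABL2 and CONT2 and 167 to 239 in reticular cells. *Hk1* was highest in erythroid cells, at 39.9 to 86.3 CPM. *Gpi1* was 477 and 580.3 CPM in granulocyte precursors of CONT1 and ABL1 and 490.0 to 554 in neutrophils, so these neighbours overlapped. *Pfkp* reached 83.4 CPM in chondrocytes of ABL2.

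None of the 9 passed the test in mesenchymal cells, where 7 of 9 were above 0 and their median log2 fold change was 0.35, and none of the 8 tested in reticular cells, where the median was −0.08. *Aldoa*, the most abundant of them, was 412, 361, 258 and 426 CPM in mesenchymal cells of CONT1, ABL1, CONT2 and ABL2, higher in ABL in replicate 2 only. *Aldoc*, the least abundant, was at most 0.890 CPM there, and at 0 UMIs in 3 of 4 reticular libraries. For *Aldoc* a count of 0 in reticular cells of CONT2 allows up to 0.115 CPM, counting 3 UMIs as the limit. The mesenchymal log2 fold changes of *Hk1*, *Pfkm*, *Pfkl*, *Tpi1*, *Hk2*, *Gpi1* and *Pfkp* lay between −0.35 and 0.44.

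The 2 enzymes that make and break fructose 2,6-bisphosphate, an activator of phosphofructokinase, were *Pfkfb3* and *Pfkfb4*. *Pfkfb3* was 25.8, 29.2, 34.2 and 14.1 CPM in mesenchymal cells of CONT1, ABL1, CONT2 and ABL2, and *Pfkfb4* was 7.56, 9.36, 9.51 and 7.85. Neither separated the conditions. *Pfkfb4* was highest in neutrophils, at 26.4, 42.3, 104.6 and 64.4 CPM.

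Lower glycolysis makes ATP and pyruvate through *Gapdh*, *Pgk1*, *Pgam1*, *Eno1* and *Pkm*. In mesenchymal cells all 5 lay above 0, with a median log2 fold change of 1.29, and none was called. *Gapdh*, the most abundant, was 359, 426, 283 and 909.6 CPM in CONT1, ABL1, CONT2 and ABL2. *Pgk1*, the least abundant, was 22.5, 49.8, 12.9 and 37.6 CPM, and both ABL libraries lay above both CONT libraries (log2 1.31, SE 0.40, adjusted p = 0.158). *Pkm*, pyruvate kinase, was 121, 219.6, 45.8 and 503 CPM, also without overlap (log2 2.13, SE 0.74, adjusted p = 0.210). *Eno1*, enolase, was 135, 177, 72.4 and 345 CPM and likewise did not overlap.

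Within reticular cells these differences were smaller. *Pkm* was 98.6, 135, 43.0 and 93.3 CPM in CONT1, ABL1, CONT2 and ABL2 (log2 0.69, SE 0.24, adjusted p = 0.152), higher in ABL in each replicate while the conditions overlapped. *Gapdh* was 352, 377 and 284 CPM in CONT1, ABL1 and CONT2 and 421 in ABL2. *Pgk1* was 19.6, 31.5, 12.9 and 10.9 CPM and moved in opposite directions in the replicates. The median of the 5 was 0.25.

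Outside the reticular class, *Eno1* was 696 and 699.6 CPM, *Pgk1* 151 and 155 CPM and *Pgam1* 413 and 390.2 CPM in granulocyte precursors of CONT1 and ABL1. These are the highest class means of those genes. *Pkm* was 960.4 CPM in chondrocytes of ABL2, 864 and 686.5 in granulocyte precursors of ABL1 and CONT1, and 579.8 to 974 in neutrophils, so these classes overlapped, and its mean in erythroid cells was 23.8 CPM.

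Lactate dehydrogenase A (*Ldha*) turns pyruvate into lactate, and *Pdk1* limits pyruvate oxidation in the mitochondria by inhibiting pyruvate dehydrogenase. *Ldha* was 382, 397, 219.7 and 483 CPM in mesenchymal cells of CONT1, ABL1, CONT2 and ABL2, and 373, 371, 221 and 295 in reticular cells. *Pdk1* was 6.52, 8.86, 6.68 and 13.4 CPM in mesenchymal cells. The ABL levels of both lay above their CONT levels in mesenchymal cells, and neither was called. For *Ldha* the distance in replicate 1 was small, and the log2 fold change with libraries scaled for the test was −0.02 there.

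The mesenchymal cells of ABL that were not reticular were uneven in these genes. An unnamed cluster of 62 cells in ABL2, led by *C1qtnf3* and *Scx*, had a sum of 7590 CPM over the glycolytic enzymes and Ldha, with *Gapdh* at 2142, *Ldha* at 1091, *Pkm* at 993, *Eno1* at 971, *Aldoa* at 746 and *Slc16a3* at 219 CPM. A second unnamed cluster of ABL2, led by *Msmp* and *Fmod* (351 cells), had 4244. A cluster led by *Prg4* and *Aspn* had 1986 in CONT1 and 3746 in ABL1. Cycling mesenchymal cells had 1152 in CONT2 (38 cells) and 5183 in ABL2 (215 cells), and their *Gapdh* was 233 and 1504 CPM and their *Slc16a3* 0 and 98.3 in the same order. By hemoglobin transcripts, RNA from outside the cell was an estimated 0.704% of the UMIs of cycling cells in CONT2 and 34.2% in ABL2. The neutrophil genes *S100a8*, *S100a9* and *Ngp* were among the 10 leading genes of the cycling cluster. In periosteal-like cells the estimated share was 0.616% in CONT2 and 27.6% in ABL2. It was 0.679% in the cluster led by *C1qtnf3* and *Scx* and 0.313% in osteoblasts of ABL2. The estimate cannot tell outside RNA from doublets or from cells that hold hemoglobin transcripts. The part of such RNA in these sums was not tested. Osteoblasts had 1413 in ABL1 and 1224 in ABL2 and periosteal-like cells 1366 in CONT2 and 2519 in ABL2, all below the cluster led by *C1qtnf3* and *Scx*. High levels were thus found in some of the ABL clusters and not in all of them.

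**Figure D4:**
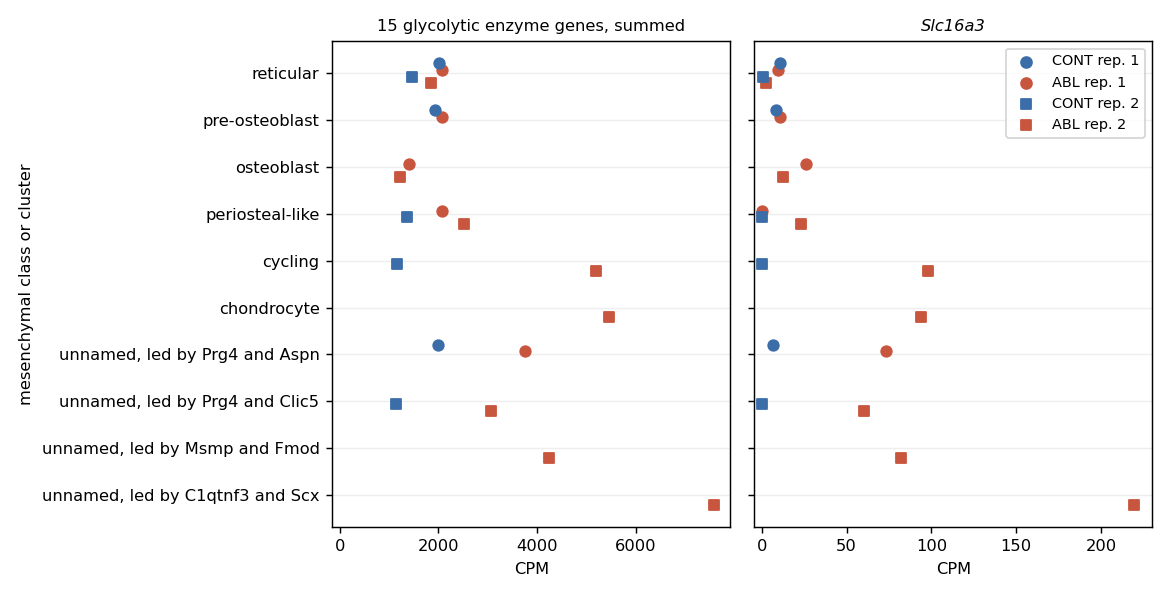
Summed CPM of the 15 genes of the list of glycolytic enzymes and Ldha, and CPM of *Slc16a3*, in each mesenchymal class or cluster and library. The cluster led by *C1qtnf3* and *Scx* in ABL2 stands highest in both, at 7590 and 219, and reticular cells lie between 1456 and 2069 in all 4 libraries.

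*Bnip3* and *Bnip3l* encode receptors that deliver mitochondria to autophagy, and *Hilpda* encodes a lipid droplet protein that inhibits the breakdown of stored triglyceride. *Bnip3l* was highest in erythroid cells, which clear their mitochondria as they mature, at 403, 452, 374 and 199.9 CPM in CONT1, ABL1, CONT2 and ABL2. In mesenchymal cells it was 181, 153, 143 and 113 CPM, lower in ABL in each replicate and not called. *Bnip3* was 97.6 CPM in chondrocytes of ABL2 and 34.3 to 44.4 in reticular cells. *Hilpda* was 52.0, 41.6, 26.1 and 32.6 CPM in mesenchymal cells, where the replicates moved in opposite directions. It was highest in endothelial cells, at 251, 388 and 245 CPM in CONT1, CONT2 and ABL2.

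In hematopoietic cells *Hilpda* (chr6:29272488-29275446, plus strand) was 19.2 CPM in CONT1 and 54.3 in ABL1, and 10.1 in CONT2 and 103 in ABL2. Both ABL libraries lay above both CONT libraries, and the log2 fold change was 2.23 (SE 0.41, edgeR adjusted p = 7.4e-06). *Aldoc* (chr11:78322968-78327781, plus strand) was 1.67, 3.18, 0.683 and 12.7 CPM, from 30, 24, 4 and 112 UMIs (log2 2.15, SE 0.61, adjusted p = 0.0108). It was a rare transcript, and ABL2 stood apart from the other 3 libraries.

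A small unnamed cluster led by *Acp5*, *Ctsk* and *Atp6v0d2*, which encode tartrate-resistant acid phosphatase, cathepsin K and a proton pump subunit, held 20 cells in ABL1 and 81 in ABL2. No such cluster formed in CONT1 or CONT2 with the UMI limit used here, but with the study's gene and mitochondrial limits alone 22 cells of CONT1 formed one, at a median of 2144 UMIs against the limit of 2684.5. In ABL1 and ABL2 *Hilpda* was 315 and 209 CPM and *Aldoc* 28.5 and 46.4. This cluster held 106 of the 112 *Aldoc* UMIs of ABL2 and 13 of 24 in ABL1, and 52.8% and 35.1% of their *Hilpda* UMIs. It was also high in glycolytic transcripts, with *Aldoa* at 1438 and 1100.5 CPM and a sum of 5855 and 5719 over the glycolytic enzymes and Ldha. Without it, a comparison added after the data were seen, *Aldoc* stood at a log2 of −0.02 (adjusted p = 1.00) and *Hilpda* at 1.69, still called. In monocytes/macrophages *Hilpda* was 22.8 CPM in CONT1 (27 UMIs, interval 15.1 to 33.2), 128 in ABL1 (147 UMIs, 108 to 150.5) and 143 in ABL2 (309 UMIs, 127 to 160). The intervals of CONT1 and of the ABL libraries did not overlap, though 1 CONT library gives no test. Different clusters made up most of the class in each condition. In CONT1 157 of its cells were in a cluster led by *Ms4a4c* and *Ctss* and 36 in one led by *C1qa*, while the clusters led by *C1qa* held 113 of 157 cells in ABL1 and 180 of 213 in ABL2. No cluster of CONT2 was given this name, since the 81 cells led by *Elane* scored close to it and to granulocyte precursors alike, and with a stricter cell filter 46 cells of CONT2 were named monocytes/macrophages. Leaving out the named monocytes/macrophages too, of which CONT2 had none to leave out, brought *Hilpda* to 0.80 (adjusted p = 0.663). The named cells held 6.57% of hematopoietic UMIs in CONT1, 15.2% in ABL1 and 24.5% in ABL2.

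**Figure D5:**
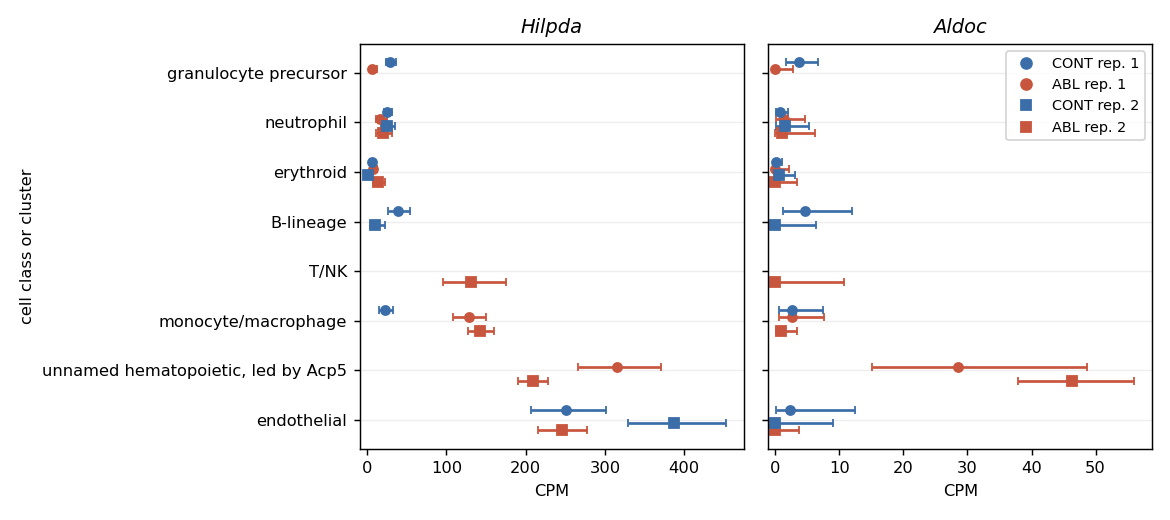
CPM of *Hilpda* and *Aldoc* in hematopoietic classes and clusters and in endothelial cells of each library, with 95% exact Poisson intervals that cover counting error only. Among the hematopoietic rows the cluster led by *Acp5* is highest for both genes, while endothelial cells reach similar or higher levels of *Hilpda*. The monocytes/macrophages of ABL1 (128) and ABL2 (143) lie above those of CONT1 (22.8) for *Hilpda*. Different clusters make up most of that class in CONT1 and in ABL.

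The oxygen sensors *Egln1* and *Egln3* encode prolyl hydroxylases of the hypoxia-inducible factors. *Egln1* was 20.2, 24.6, 50.6 and 74.7 CPM in mesenchymal cells of CONT1, ABL1, CONT2 and ABL2, higher in ABL in each replicate by less than the distance between the replicates. *Egln3* was 0.741, 1.34, 1.23 and 2.77 CPM. Neither was called. *Egln1* reached 104 CPM in chondrocytes of ABL2, and *Egln3* 8.72 and 8.47 CPM in granulocyte precursors of CONT1 and ABL1.

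The other hypoxia response genes were *Ndrg1*, a stress response gene, *Ddit4*, an inhibitor of mTORC1 signalling, *Mxi1*, a transcription factor that opposes MYC, *Adm*, which encodes the vasodilator adrenomedullin, *Car9*, a carbonic anhydrase, and *Ankrd37*. In mesenchymal cells 1 of the 5 tested lay above 0 and the median log2 fold change was −1.15. In reticular cells *Ndrg1* (chr15:66929318-66969640, minus strand) was 63.0 CPM in CONT1 and 29.0 in ABL1, and 51.4 in CONT2 and 36.0 in ABL2. The conditions did not overlap, with a log2 fold change of −0.90 (SE 0.23, adjusted p = 0.0363). In all mesenchymal cells *Ndrg1* was 62.9, 40.1, 53.2 and 74.5 CPM in CONT1, ABL1, CONT2 and ABL2, with the replicates in opposite directions (log2 −0.72 and 0.49, adjusted p = 0.946).

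*Ddit4* was 187 CPM in CONT1 and 109.8 in ABL1, and 167 in CONT2 and 91.8 in ABL2, in reticular cells, the highest class for this gene by its mean. The difference was of like size in both replicates (−0.89 and −0.92) but missed the threshold (log2 −0.90, SE 0.25, adjusted p = 0.0601). In all mesenchymal cells *Ddit4* was 174, 104, 162 and 35.5 CPM (log2 −1.50, adjusted p = 0.208). *Mxi1* was 59.3, 54.3, 155 and 84.7 CPM in reticular cells (log2 −0.60, adjusted p = 0.252), lower in ABL in each replicate while the conditions overlapped. *Adm* was 46.6, 27.8, 16.9 and 19.9 CPM in the same cells and turned in opposite directions in the replicates.

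Endothelial cells held the highest mean of several of these genes. *Ndrg1* was 343, 763 and 375 CPM there in CONT1, CONT2 and ABL2, *Adm* 78.4, 29.4 and 35.9, and *Ankrd37* 17.9, 22.1 and 10.97. For *Ndrg1* the lowest endothelial library lay above every library of the other named classes, while an unnamed cluster of 11 cells in CONT2, led by *Prg4* and *Clic5*, reached 716 CPM. *Car9* was at most 1.80 CPM in mesenchymal cells, with 0.297, 0.167, 0.0726 and 1.80 in CONT1, ABL1, CONT2 and ABL2, and was too low to be tested there. In monocytes/macrophages it was 6.77, 6.10 and 5.09 CPM in CONT1, ABL1 and ABL2.

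Within erythroid cells 21 members were tested and 0 were called by edgeR (2 at an unadjusted p under 0.05, *Hk2* and *Slc16a3*, against 500 genes), where 0.372% of 7262 genes were called higher and 0.537% lower (0.909% in either direction). Within neutrophils 25 were tested and 0 were called (0 unadjusted, against 192 genes), where 0.0166% of 6033 genes were. DESeq2 was not run in these classes. The difference between the mesenchymal and the hematopoietic response was tested as an interaction, which called 0 of 13644 genes (0%) and 0 of the 32 members. At an unadjusted p under 0.05 it gave 8 members and 1459 genes. *Hilpda*, as its mesenchymal minus its hematopoietic log2 fold change, had the value −2.30 (adjusted p = 0.411) with edgeR, and DESeq2 called this gene alone of the members (−2.18, adjusted p = 0.00458).

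Genes of neighbouring pathways, in lists made by pathway, were counted in the same fits. In mesenchymal cells edgeR called 0 genes of the hypoxia regulators (9 tested, 1 at an unadjusted p under 0.05), 0 of the further hypoxia targets (18 tested, 5), 0 of the further glycolytic isoenzymes (11 tested, 0), 0 of pyruvate oxidation (12 tested, 0), 0 of the pentose phosphate pathway (7 tested, 0) and 0 of glycogen and gluconeogenesis (9 tested, 1). Their median log2 fold changes there were −0.43, −0.14, −0.14, 0.04, −0.14 and 0.73. In reticular cells the same 6 lists also had 0 called, with 0 to 3 genes at an unadjusted p under 0.05, and medians from −0.35 for the further hypoxia targets to 0.43 for glycogen and gluconeogenesis. In hematopoietic cells 1 of 8 hypoxia regulators tested was lower, *Epas1*, which encodes HIF-2α. So was 1 of 16 further hypoxia targets, *Plod2*, a collagen lysyl hydroxylase. No other gene of the 6 lists was called, where 2.55% of all genes were lower and 3.84% higher. DESeq2 was not run on these lists.

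In hematopoietic cells *Epas1* was 36.9, 22.1, 63.9 and 6.11 CPM in CONT1, ABL1, CONT2 and ABL2 (log2 −2.16, edgeR adjusted p = 3.1e-05), and *Plod2* was 8.57, 7.68, 28.9 and 6.11 (log2 −1.35, adjusted p = 0.0271). The level of *Cxcl12*, a gene of the stromal cells, in the same hematopoietic cells was 614, 395, 1004 and 101 CPM. The estimated share of RNA from outside the cell was 11.6, 7.18, 9.10 and 5.42% of hematopoietic UMIs, higher in CONT than in ABL of each replicate. With that RNA subtracted, *Epas1* turned to 3.47 and was called higher in ABL (edgeR adjusted p = 0.025), and *Plod2* was too low to be tested. In erythroid cells 2 of 6 hypoxia regulators tested were lower in ABL, *Epas1* (−2.70) and *Cited2*, which competes with HIF for a coactivator (−1.82). So was 1 of 13 further hypoxia targets, *Vegfa*, the vascular endothelial growth factor (−2.17), where 0.537% of all genes were lower. *Cxcl12* was 660, 358, 791 and 389.6 CPM in erythroid cells, and these called genes were too low to be tested after the subtraction.

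The last lists concern handling of the tissue and cell division. In reticular cells 3 of 20 dissociation stress genes were lower in ABL and none was higher, where 1.17% of all genes were lower. These were *Hspa1b* (161.9, 38.6, 266 and 68.9 CPM in CONT1, ABL1, CONT2 and ABL2, log2 −2.09, edgeR adjusted p = 3.5e-05), *Atf3* (log2 −1.52, adjusted p = 0.00162) and *Hspa1a* (log2 −1.64, adjusted p = 0.00167). *Hspa1a* and *Hspa1b* are near copies that can share reads. The summed level of the dissociation stress list was 20773, 14102, 23497 and 15868 CPM, higher in both CONT libraries, as *Slc2a3*, *Ndrg1* and *Ddit4* were, and no gene of it was at 0. Its part in the result of those members was not tested. The lower stress level in ABL was not limited to the reticular class. The median log2 fold change of the list was −0.69 in reticular, −1.08 in mesenchymal, −0.99 in neutrophil, −0.80 in erythroid and −0.38 in hematopoietic sums. Of its 20 genes, 0 lay above 0 in reticular, mesenchymal and neutrophil sums, 2 in erythroid and 5 in hematopoietic sums. Of these genes edgeR called 0 in mesenchymal and neutrophil sums and 1, *Egr1*, lower in erythroid cells. In hematopoietic cells 1 of 20 stress genes, *Egr1*, was lower (log2 −1.44, edgeR adjusted p = 0.00961). With free RNA subtracted *Egr1* was called higher there (1.42, edgeR adjusted p = 0.0426). Without the subtraction 2 of 14 cell cycle genes were lower too, *Mki67* (−1.45) and *Cenpf* (−1.41), where 2.55% of all genes were lower. In mesenchymal cells 0 of 14 cell cycle genes were called (8 at an unadjusted p under 0.05, against 2004 of 13662 genes) and their summed CPM in the cell cycle list was 205, 277, 86.1 and 305.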

How the data were processed

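Per the labels and the study's methods, cells were captured with 10x Chromium and the reads were counted by the authors. Cell Ranger, Seurat and mm10 are named in the submitters' processing notes, and versions are not given in the sources used here. The deposited matrices hold UMI counts per gene and barcode, unfiltered, with 8 added sequences. No column was left unused (0).

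Cells needed 500 detected genes in version 2 libraries and 1000 in version 3, a mitochondrial share no higher than 20% and 15% respectively, and UMIs above 1/10 of the 99th percentile of the top 3000 barcodes. The gene and mitochondrial limits, which are the study's, left 4809, 1768, 2478 and 2720 barcodes in CONT1, ABL1, CONT2 and ABL2, and the UMI limit, added here, left 3433, 1459, 2404 and 2537. Total UMIs per library were 22889380 to 44784072. Cells were clustered per library with Seurat 5.3.0 (2000 variable genes, 30 components, resolution 0.8), the members left out, which gave the compartments and hematopoietic classes. Mesenchymal cells were clustered again per replicate, CONT and ABL joined by integration, with members and markers left out. Clusters were named from marker lists, with score thresholds that were set after the data were seen. Doublets were called with Scrublet in scanpy 1.11.5 and kept. Counts were summed per class and library and tested with edgeR 4.0.16 (TMM, filterByExpr, quasi-likelihood) in R 4.3.3. Standard errors are the log2 fold change over the square root of F. The block leaves 1 residual degree of freedom. Intervals and limits cover counting error only. P-values come from 2 pairs of libraries and use a spread estimated with help from all genes tested. They do not measure the spread of a single gene between its pairs alone. Those of hematopoietic cells were close to what a normal distribution gives for the log2 fold change over its SE. A gene's own spread between its pairs thus had almost no weight there. In hematopoietic cells *Hilpda* had an SE of 0.41 with replicates at 1.32 and 3.18. *Aldoc* had an SE of 0.61 there with replicates at 0.70 and 3.69.

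Numbers pair the femurs by design (the contralateral femur of the same mice). The correlation of deviations within pairs was 0.429 in mesenchymal, 0.754 in reticular, 0.518 in hematopoietic, 0.572 in erythroid and 0.61 in neutrophil sums. The replicate number also marks the Chromium version, so neither this correlation nor the block can tell the pairing of femurs from the chemistry. Since *Xist* differs within replicate 2, the pairing there is uncertain.

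The members, gene lists and tests were chosen with earlier results of these data known. Values per library are given for members past the threshold, for the most and least abundant member of each role in mesenchymal cells, and for the 20 members whose highest class is at least 3 times the mean of the others. On simulated counts 200 genes were changed, drawn at random from all genes tested and not matched to the members in level. At a log2 of 2 the test recovered 86 in mesenchymal (13662 genes), 171 in reticular (11464 genes) and 107 in hematopoietic cells (11990 genes). At a log2 of 1 it recovered 0, 85 and 4. The share of calls that were false was 7.53, 0 and 1.84% in the same order at a log2 of 2. At a log2 of 1 it was 100, 8.60 and 0%. With 0 recovered in mesenchymal cells, any false call gives 100% there.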

Additional observations from a re-analysis of the deposited data

Results flagged for a closer look

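The log2 fold change of ABL over CONT went in opposite directions in reticular and hematopoietic cells, in every replicate, for 3 members. The reticular value minus the hematopoietic value was −0.557 for *Pfkl*, the liver type phosphofructokinase (−0.18 and 0.37), −0.70 for *Pfkp*, the platelet type (−0.52 and 0.18), and −0.6495 for *Tpi1*, triosephosphate isomerase (−0.09 and 0.56). For *Tpi1* the reticular value of replicate 2 was −0.0030, and without TMM scaling its reticular level was higher in ABL2 (138 CPM) than in CONT2 (133). *Pfkl* likewise was 49.0 CPM in reticular cells of ABL1 and 47.8 in CONT1, so for both genes the opposite directions hold on the TMM scale only. The difference between reticular and hematopoietic cells was not tested, and none of the 6 values was past the threshold on its own. The share of all genes with such opposite directions was not counted, so the 3 members are not a result about this gene set.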

How the results depend on the processing

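With the replicate block left out, 0 members were called in mesenchymal, reticular and hematopoietic cells, and no gene of any of these fits was called either. The 2 calls in reticular cells and the 3 in hematopoietic cells thus rest on the block, which marks the Chromium version as well as the pairing. DESeq2 called 1 mesenchymal member (*Pkm*, 2.16), 0 reticular members, 1 hematopoietic member (*Hilpda*) and 1 in the interaction. In mesenchymal cells 1 member, *Slc16a3*, was called with free RNA subtracted (7.40) and in the mesenchymal cells other than reticular cells (3.53). The makeup of that non-reticular group differed between CONT2 and ABL2. In reticular cells 4 members were called without TMM scaling (*Pkm* higher, *Slc2a3*, *Ndrg1* and *Ddit4* lower) and 0 at a clustering resolution of 0.4, where *Slc2a3* had an adjusted p of 0.0572 and *Ndrg1* 0.0552. *Ddit4* passed in 9 settings, with adjusted p from 0.00943 to 0.0416. In hematopoietic cells 1 member was called without the *Acp5*-led clusters, where *Aldoc* turned to −0.017, and 0 without those and the macrophages, both chosen after the data were seen. Leaving out 1 library at a time, without the block, called 0 to 1 members in mesenchymal cells, 0 in reticular cells and 0 to 1 in hematopoietic cells. The 1 in each case came without ABL1, which left *Slc16a3* (3.58) in mesenchymal cells and *Aldoc* in hematopoietic cells. A lone library is assumed to vary like the other condition. *Slc2a3* in hematopoietic cells lost its call in 12 settings and *Hilpda* there in 6. Leaving TMM out moved the median of all hematopoietic genes from −0.05 to 0.11 and of the interaction from −0.01 to −0.13. With free RNA subtracted *Epas1* (3.47) and *Egr1* (1.42) reversed in hematopoietic cells and were called higher in ABL. The cause of these changes was not tested. Calls over all genes ranged from 0 to 703 in mesenchymal cells (81 as reported), from 0 to 619 in reticular cells (314) and from 0 to 767 in hematopoietic cells (767).

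On simulated counts for 2 pairs of libraries, effects near a log2 of 1 were mostly out of reach in mesenchymal and hematopoietic sums. Members at a few CPM, such as *Aldoc*, *Egln3* and *Car9*, rest on few UMIs in reticular cells.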
